A study of Drosophila melanogaster with 15 samples.

Results

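The genes described here encode the aminoacyl-tRNA synthetases of D. melanogaster. They were chosen by name, as every gene whose symbol is an amino acid code followed by RS or RS-m, with at least 1 read in 6 of the 15 libraries. All 35 genes with such a symbol passed, of 11424 genes that passed the same filter and 17481 gene identifiers counted. By symbol, 15 of these 35 genes carry the suffix -m and are called mitochondrial here, and the other 20 are called cytosolic. For 5 of the 20 (GlnRS, GlyRS, HisRS, LysRS and ThrRS) there was no gene with the suffix for the same amino acid. Whether genes without the suffix also supply mitochondria was not tested. Over all 35 genes, the fewest reads in any library were 30, for GluRS-m, and the most were 19718, for AspRS.

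Aminoacyl-tRNA synthetases join each amino acid to its tRNA, the step that sets which amino acid a codon is read as. Animal cells need such enzymes for translation on cytosolic ribosomes and, encoded in the nucleus and imported, for translation inside mitochondria. Some cytosolic members are bound together in a multi-synthetase complex with AIMP scaffold proteins, GluProRS carries the enzymes for glutamate and proline in one polypeptide, and cytosolic PheRS is assembled from an alpha and a beta subunit whereas its mitochondrial counterpart acts as a single chain.

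RNA-seq was done on Kc167 cells, an embryonic line of D. melanogaster that resembles blood cells, after 6 days with dsRNA. The question was how the splice isoforms DOM-A and DOM-B of the remodeling ATPase DOMINO, the acetyltransferase TIP60 and the histone variant H2A.V differ in their effects on transcription. There were 3 libraries in each of 5 groups, which received dsRNA against DOM-A, DOM-B, TIP60 (gene Tip60), H2A.V (gene His2Av) or a control sequence (CTRL). The control sequence was GST in replicates 1 and 3 and GFP in replicate 2, so control sequence and replicate cannot be told apart. The knock-downs are of whole cultures, and all libraries, CTRL included, carried RNA from added D. virilis 79f7Dv3 cells. A normalized count is a gene's read count divided by the size factor of the D. virilis reads of that library, so it scales with RNA per spike-in cell. In such bulk samples fewer cells of a type and less RNA per cell cannot be told apart. A gene is called when its adjusted p from edgeR's quasi-likelihood test is under 0.01.

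The labels were checked on the targeted genes. Tip60 fell in TIP60 cells, from a normalized count of 262 in CTRL to 41.9 (log2 fold-change −2.65, edgeR adjusted p = 7.54e-07). His2Av was at 224.2, 1958 and 277.2 in the 3 H2A.V libraries against 10450 to 12350 in CTRL, so that replicate 2 kept the most. Reads of dom pool all isoforms and check neither DOM-A nor DOM-B. Libraries held 8662976 to 14679536 reads on D. melanogaster genes. Of 7 hemocyte markers, all detected in CTRL, 6 were called higher in DOM-A cells, 5 in TIP60 cells and 0 in DOM-B cells, and in H2A.V cells Pxn was called higher and He lower. Of all genes tested, 8.96%, 4.88%, 2.74% and 1.23% were called higher in these groups. Their summed normalized count was 21260 to 26690 in CTRL, 82850 to 95840 in DOM-A, 29400 to 92500 in TIP60, 43980 to 55130 in DOM-B and 16140 to 35730 in H2A.V. The summed count of 4 markers of other cells was 260 to 401.2 in CTRL, nearly all of it from elav, 100.8 to 161.5 in DOM-A, 60.59 to 129.8 in TIP60, 345.9 to 461.7 in DOM-B and 220.2 to 360.1 in H2A.V. The neuronal gene elav was called lower in DOM-A and TIP60 (−1.69 and −2.25), and the germline gene vas, with a mean of 5.84 in CTRL, was called higher in DOM-A, DOM-B and H2A.V (2.09, 4.36 and 3.22). In CTRL the muscle and fat body genes Mhc and Fbp1 had means of 13.4 and 1.03. The part of these markers in the results on synthetases was not tested.

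In CTRL cells the cytosolic synthetase genes were expressed at higher levels than the mitochondrial ones. Per kb of exon, the median normalized count was 863 for the cytosolic and 119 for the mitochondrial genes, against 99.3 for all genes tested. AspRS, the cytosolic aspartate enzyme, had the highest level, 4120 ± 551 per kb (SD, n = 3), and ValRS-m, the mitochondrial valine enzyme, the lowest, 37.5 ± 4.72 per kb. ThrRS and SerRS, next in order at 1546 ± 33.5 and 1538 ± 84.1 per kb, did not differ beyond their spread. The classes overlapped in this order. AspRS-m stood among the cytosolic genes at 663 per kb, and MetRS, the lowest cytosolic gene at 304 per kb, stood below AspRS-m and PheRS-m. The subunits of cytosolic PheRS were at close levels, 532 ± 38.6 per kb for alpha-PheRS and 484 ± 13.9 per kb for beta-PheRS, which differed by little more than the larger of these SDs.

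**Figure D1:**
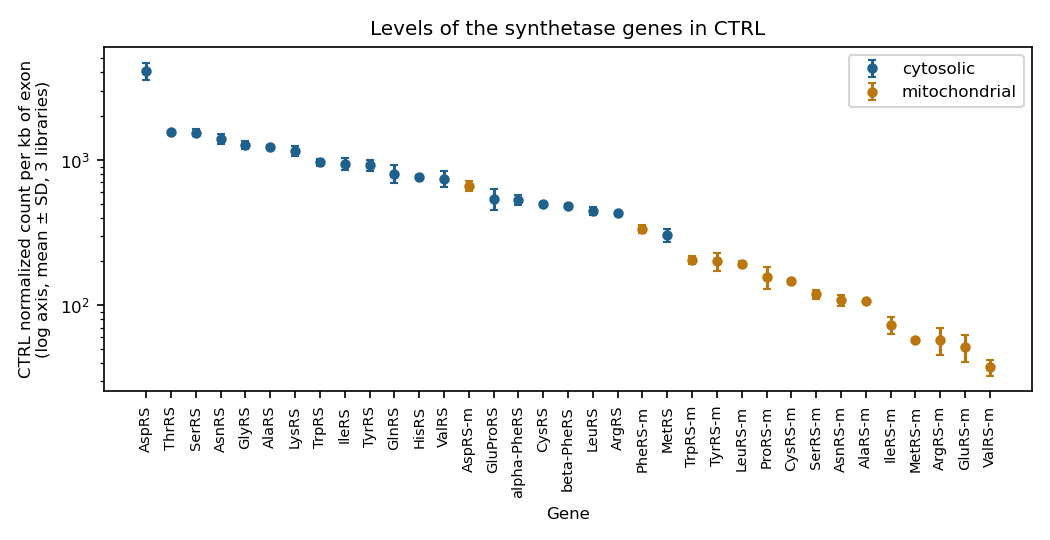
Normalized count per kb of exon of each synthetase gene in CTRL, on a log axis, as mean ± SD of 3 libraries, with genes ordered by level. Cytosolic genes (blue) lie between 304 and 4120 per kb and mitochondrial genes (orange) between 37.5 and 663 per kb.

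Depletion of DOM-A was followed by lower mRNA of cytosolic synthetases. Of the 20 cytosolic genes, 10 were called lower and 0 higher, while among all genes tested 10.4% were called lower and 8.96% higher. Shares of all genes, here and elsewhere, were not matched for level or precision. The median standard error was 0.11 for cytosolic genes and 0.22 for all genes tested, so equal changes were more readily called in the former. All 20 cytosolic genes had a log2 fold-change below 0, with a median of −0.53 against 0.03 for all genes tested. The genes called lower encode the enzymes for aspartate, glycine, isoleucine, tyrosine, lysine, tryptophan, alanine, glutamate and proline, valine, and histidine. In 18 of the 20 genes every DOM-A library was below every CTRL library, a pattern shown by 21.1% of all genes tested. The exceptions were alpha-PheRS and MetRS. By contrast, 1 of 15 mitochondrial genes was called lower, AspRS-m, and the mitochondrial median was −0.04. The share of all D. melanogaster reads that fell on the 35 genes was 0.302% to 0.33% in DOM-A and 0.474% to 0.496% in CTRL libraries.

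**Figure D2:**
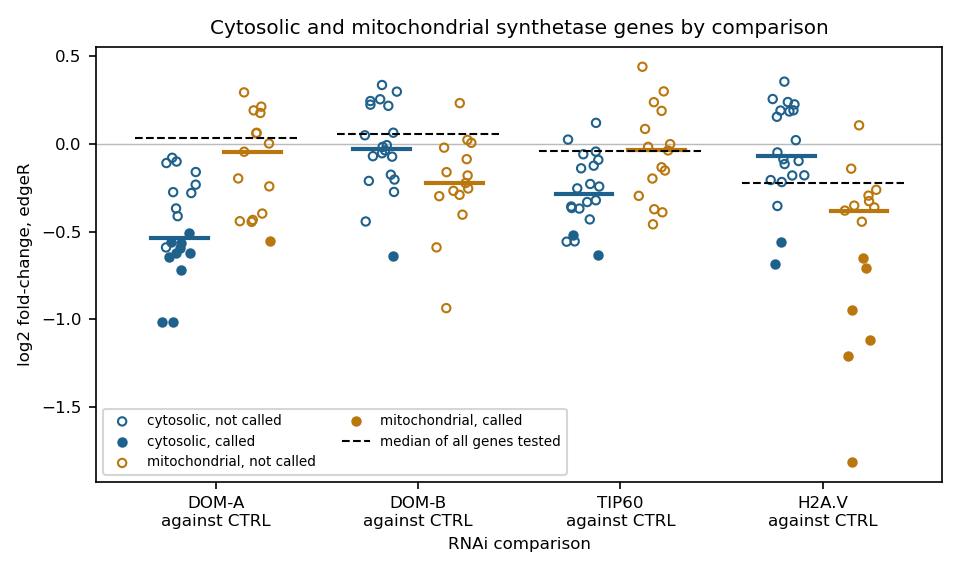
log2 fold-change against CTRL (y axis, edgeR) of each of 20 cytosolic (blue) and 15 mitochondrial (orange) genes in the 4 knock-downs, filled where called, with bars at the class medians and dashed lines at the median of all genes tested. The cytosolic median lies at −0.53 after DOM-A RNAi and the mitochondrial median at −0.38 after H2A.V RNAi.

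AspRS and GlyRS showed the largest decreases. GlyRS (FBgn0027088, the glycine enzyme, chromosome 3L, 15095142 to 15097686, plus strand) had normalized counts of 3420, 3212 and 3017 in CTRL and 1785, 1484 and 1513 in DOM-A replicates 1, 2 and 3. The groups were well separated, and the level fell to 49.6% of CTRL (log2 fold-change −1.01, SE 0.14, edgeR adjusted p = 1e-04). AspRS (FBgn0002069, 2R, 12877004 to 12883168, plus strand) was at 10330, 9740 and 7935 in CTRL and at 5484, 4134 and 4141 in DOM-A, without overlap (−1.02, SE 0.20, edgeR adjusted p = 0.00158). Part of its exons overlaps exons of Nmda1 and antisense RNA genes, 1575 nt on the other strand and 154 nt on the same strand, and how reads there were assigned was not tested. Reads on the strand opposite to AspRS were 0.301% of its reads.

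IleRS (FBgn0027086, the isoleucine enzyme, 3L, 22288665 to 22292810, plus strand) was at 4075, 3616 and 3353 in CTRL and at 2272, 2638 and 1856 in DOM-A. Again no DOM-A library reached the lowest CTRL library (−0.72, SE 0.15, edgeR adjusted p = 0.00278). The other 7 cytosolic genes called lower had log2 fold-changes between −0.64 (TyrRS, tyrosine) and −0.51 (HisRS, histidine), that is about 64.0% to 70.3% of CTRL. ThrRS, the threonine enzyme, was at −0.59 and missed the threshold (edgeR adjusted p = 0.0103), as did GlnRS, the glutamine enzyme, at −0.37 (adjusted p = 0.0141, edgeR). The smallest changes were those of MetRS (−0.08), beta-PheRS (−0.10), ArgRS (−0.11) and alpha-PheRS (−0.16). Exons of HisRS share 255 nt with Bx on the same strand, so its reads there are uncertain.

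AspRS-m (FBgn0051739, 2L, 16827078 to 16832093, plus strand), the most highly expressed mitochondrial member, was at 3207, 2754 and 2840 in CTRL and at 2071, 1878 and 2038 in DOM-A (−0.55, SE 0.11, edgeR adjusted p = 0.00161). It is the mitochondrial counterpart of AspRS, so both genes for aspartate were called lower. The other 14 mitochondrial genes lay between −0.44 (AsnRS-m and MetRS-m) and 0.29 (LeuRS-m), and 7 of the 15 were above 0. The median standard error was 0.11 for cytosolic, 0.16 for mitochondrial and 0.22 for all genes tested. Changes of mitochondrial genes were thus measured less precisely than those of cytosolic ones.

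Cytosolic genes of different kinds were called lower. Of 8 genes whose mammalian enzymes belong to the multi-synthetase complex (ArgRS, AspRS, GlnRS, GluProRS, IleRS, LeuRS, LysRS and MetRS), 4 were called lower with a median of −0.47, and of the other 12 cytosolic genes 6 were called lower with a median of −0.53. This grouping was chosen after the values were seen. Of the 5 cytosolic genes without a gene of suffix -m for their amino acid, 3 were called lower with a median of −0.59. Of the 15 with such a gene, 7 were called lower with a median of −0.41. Differences between these groupings were not tested. Of the complex's scaffold genes, AIMP1 fell from a mean of 685 to 444 (−0.62, SE 0.11, edgeR adjusted p = 0.000945). AIMP2 (−0.65, adjusted p = 0.0203) and AIMP3 (−0.41, adjusted p = 0.0132) were not called by edgeR.

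The number of members called after DOM-A RNAi depended on single libraries. It was 11 with all libraries, 4 without CTRL replicate 3, 5 without CTRL replicate 1 and 7 without DOM-A replicate 1 or without DOM-A replicate 3. GlyRS, TyrRS and TrpRS stayed called whichever of the 6 libraries was left out, and no alternative turned the direction of a called member. Without the replicate block, 5 members were called (AlaRS, GlyRS, LysRS, TyrRS and AspRS-m).

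**Figure D3:**
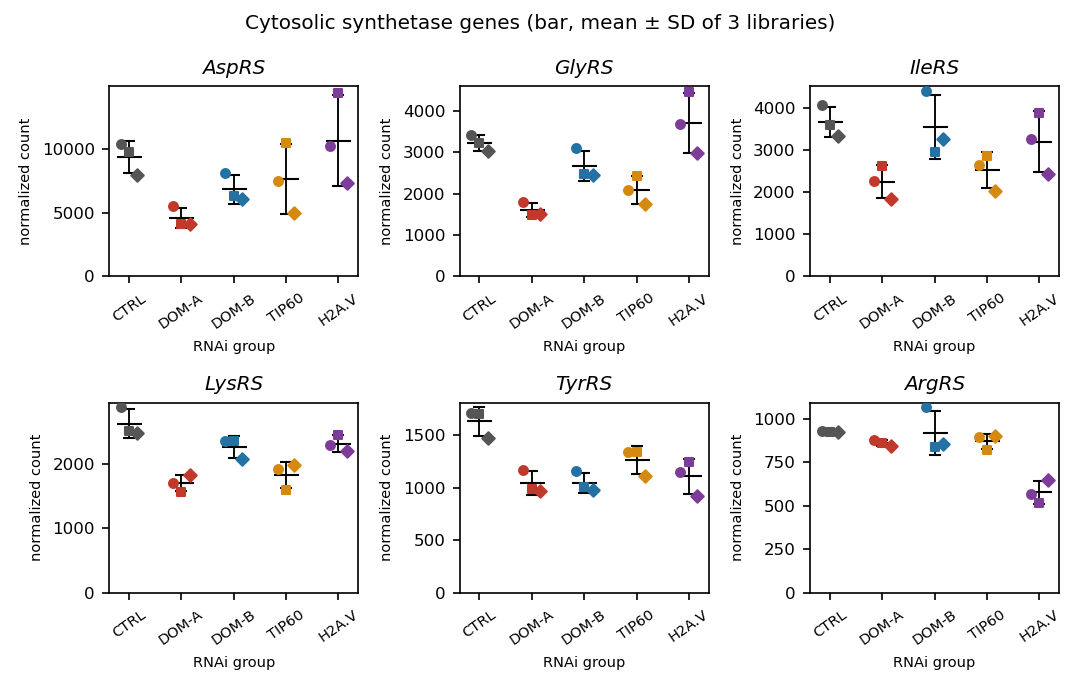
Normalized counts (y axis) of 6 cytosolic genes by RNAi group, with replicates 1, 2 and 3 as circle, square and diamond and bars at mean ± SD of 3 libraries. GlyRS lies at 1484 to 1785 in DOM-A against 3017 to 3420 in CTRL, and ArgRS at 516.9 to 645.9 in H2A.V against 924.4 to 930.8 in CTRL.

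After TIP60 RNAi fewer members were called. GlyRS and LysRS were called, 2 of 20 cytosolic genes and 0 of 15 mitochondrial ones, where 8.43% of all genes tested were called lower and 4.88% higher. The cytosolic median was −0.29 and the mitochondrial median −0.04, the same as that of all genes tested (−0.04). Of the cytosolic genes 18 of 20 were below 0 and 10 had an unadjusted p under 0.05 in edgeR, all lower. Of the mitochondrial genes 3 lower and 1 higher did. Among all 11424 genes tested, 2477 were lower and 1687 higher at that p. GlyRS was at 2079, 2426 and 1750 in TIP60, below all CTRL libraries (−0.63, SE 0.13, edgeR adjusted p = 0.00378). LysRS (FBgn0027084, the lysine enzyme, X, 9606363 to 9608884, minus strand) was at 2879, 2503 and 2475 in CTRL and at 1910, 1598 and 1973 in TIP60 (−0.52, SE 0.12, edgeR adjusted p = 0.00528). In DOM-A it was at 1707, 1566 and 1824. The same CTRL libraries entered both comparisons. GlyRS and LysRS are both among the 5 cytosolic genes without a gene of suffix -m for their amino acid. Of the 15 cytosolic genes with such a gene, 0 were called after TIP60 RNAi.

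These 2 calls were fragile. Leaving out any 1 of the 6 libraries left 0 or 1 call: LysRS was kept without TIP60 replicate 3, GlyRS without TIP60 replicate 2, and neither without any of the other 4 libraries. TMM scaling on D. melanogaster counts gave 0 calls, total D. virilis counts gave 9 and DESeq2 gave 6, all lower. With total D. virilis counts the median of all genes moved from −0.04 to −0.19, and the share of higher calls among all genes called from 36.6% to 22.5%. HisRS (−0.43, adjusted p = 0.0116), IleRS (−0.56, adjusted p = 0.0163) and TyrRS (−0.37, adjusted p = 0.0189) lay just beyond the threshold in edgeR.

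Libraries of replicate 2 stood apart for some members. beta-PheRS (FBgn0039175, 3R, 24250460 to 24252679, minus strand) was at 964.5 and 875.7 in TIP60 replicates 1 and 3 but at 181.8 in replicate 2, from 135 reads. Every other library of any group lay between 689 and 1020. Its partner subunit alpha-PheRS was at 926.4 in that library, near the 923.9 of replicate 1, so the subunits diverged there. The fold-change of beta-PheRS after TIP60 RNAi was −0.56 (SE 0.36, edgeR adjusted p = 0.285), and −0.04 without that library (adjusted p = 0.866). In TIP60 replicate 2, 44 of 6445 genes were at least 4-fold below the mean of the other TIP60 libraries, against 8 and 11 genes for replicates 1 and 3. DOM-A replicate 2 had 80 such genes of 6453, none of them a member, and 11 members were called lower than CTRL without it. AspRS was at 7447, 10440 and 4963 in TIP60 and at 10190, 14380 and 7299 in H2A.V, so that replicate 2 was the highest of both groups and the groups overlapped CTRL.

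The direct test between DOM-A and TIP60 called 0 of the 35 genes, and 0.0175% of all genes tested (2 genes), by edgeR. At an unadjusted p under 0.05 in edgeR there were 8 members, all lower in DOM-A, where 524 of 11424 genes tested were lower and 967 higher. DESeq2 called 0 members with 9 at an unadjusted p under 0.05. The largest of these differences was that of AspRS (−0.68, SE 0.20, edgeR adjusted p = 0.183), followed by ThrRS (−0.55, SE 0.16, adjusted p = 0.18). ThrRS was at 3506, 2701 and 2780 in DOM-A, at 4425, 5409 and 3332 in TIP60 and at 4516, 4367 and 4548 in CTRL. The lowest TIP60 library thus lay within the range of DOM-A, and the groups overlapped. The cytosolic median of this difference was −0.18.

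After DOM-B RNAi 1 of 35 genes was called lower, where 2.33% of all genes tested were called lower and 2.74% higher. It was TyrRS (FBgn0027080, the tyrosine enzyme, 3L, 16417349 to 16419302, minus strand), at 1714, 1704 and 1471 in CTRL and at 1158, 1009 and 974.4 in DOM-B. All DOM-B libraries were below CTRL, at 64.3% of its level (−0.64, SE 0.10, edgeR adjusted p = 0.00174). The cytosolic median was −0.03 and 8 of 20 genes were above 0. HisRS (0.34, adjusted p = 0.0589) and AlaRS (0.30, adjusted p = 0.093) were highest and not called by edgeR. The call of TyrRS was lost, leaving 0 members, without CTRL replicate 1, CTRL replicate 3 or DOM-B replicate 1. It was also lost, leaving 0 members, without the replicate block (edgeR adjusted p = 0.0152) and with total D. virilis counts. The latter scaling moved the median of all genes from 0.06 to 0.21 and the share of higher calls from 54.1% to 80.7%.

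The mitochondrial genes had a median of −0.22 in DOM-B cells with 0 called by edgeR. At an unadjusted p under 0.05 in edgeR there were 4 of 15, all lower. At that p, 1440 of 11424 genes tested were lower and 1762 higher. The lowest was GluRS-m (FBgn0036629, 3L, 16415292 to 16417177, minus strand), which charges mitochondrial tRNA with glutamate, at 87.9, 68.75 and 106.6 in CTRL and at 44.45, 49.19 and 43.7 in DOM-B. The groups did not overlap, and the change was −0.94 (SE 0.23) with an edgeR adjusted p of 0.016. It was under 0.01 by DESeq2 (adjusted p = 0.00397), with TMM scaling on D. melanogaster counts (edgeR adjusted p = 0.00895) and in an edgeR fit of only CTRL and DOM-B (adjusted p = 0.00704). GluRS-m and TyrRS are neighbours on the same strand with a gap of 171 nt. In DOM-A cells GluRS-m was at 79.64, 125.9 and 90.47, a range that overlapped CTRL.

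DOM-A and DOM-B cells were compared directly. Of the 20 cytosolic genes, 9 were called lower in DOM-A than in DOM-B, where 10.1% of all genes tested were, and the median difference was −0.49. All 20 differences were below 0. AlaRS (FBgn0027094, the alanine enzyme, 2L, 8378262 to 8381764, minus strand) was at 2792, 2895 and 2398 in DOM-A and at 5991, 4630 and 4414 in DOM-B, with CTRL between them at 4211, 3996 and 3944. It had the largest difference (−0.89, SE 0.11, edgeR adjusted p = 9.08e-05). HisRS, TrpRS and ValRS followed at −0.85, −0.84 and −0.80, and GlyRS, IleRS, SerRS, GluProRS and AsnRS lay between −0.74 and −0.49. HisRS was at 1434, 1833 and 1354 in DOM-A and at 3013, 2711 and 2550 in DOM-B, a wider gap than that of DOM-A to CTRL (2247, 2180 and 2118).

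TyrRS did not differ between these cells beyond its error (−0.01, SE 0.10, edgeR adjusted p = 0.97), being lower than CTRL in both. Of the mitochondrial genes 1 was called higher in DOM-A, where 7.28% of all genes tested were. This was GluRS-m (1.11, SE 0.23, edgeR adjusted p = 0.00248), at 2.16-fold its level in DOM-B. IleRS-m, the mitochondrial isoleucine enzyme, was at 217.8, 308.6 and 203.3 in DOM-A and at 157.7, 109.7 and 156.2 in DOM-B without overlap, and was not called (0.78, SE 0.21, edgeR adjusted p = 0.0118). All 3 AIMP genes were called lower in DOM-A than in DOM-B, by −0.51 to −0.87. Scaling by total D. virilis counts moved the median of all genes from −0.02 to −0.26 and the share of higher calls from 41.8% to 16.7%. It gave 15 members lower and 0 higher, in place of 9 and 1, and DESeq2 gave 12 and 2. TMM scaling on D. melanogaster counts and a fit without the replicate block each gave 5 lower and 1 higher. A fit of these 2 groups alone gave 7 and 0. AsnRS, GluProRS and IleRS were lost under TMM scaling, without the block and in the fit of 2 groups. SerRS was lost under TMM scaling and without the block. The count was 10 with all libraries, 5 without DOM-B replicate 1 and 6 without DOM-A replicate 1, DOM-A replicate 3 or DOM-B replicate 3. AlaRS, GlyRS, HisRS, TrpRS and ValRS stayed called in each of these fits, and GluRS-m was lost without DOM-B replicate 1, DOM-A replicate 2 or DOM-B replicate 3.

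**Figure D4:**
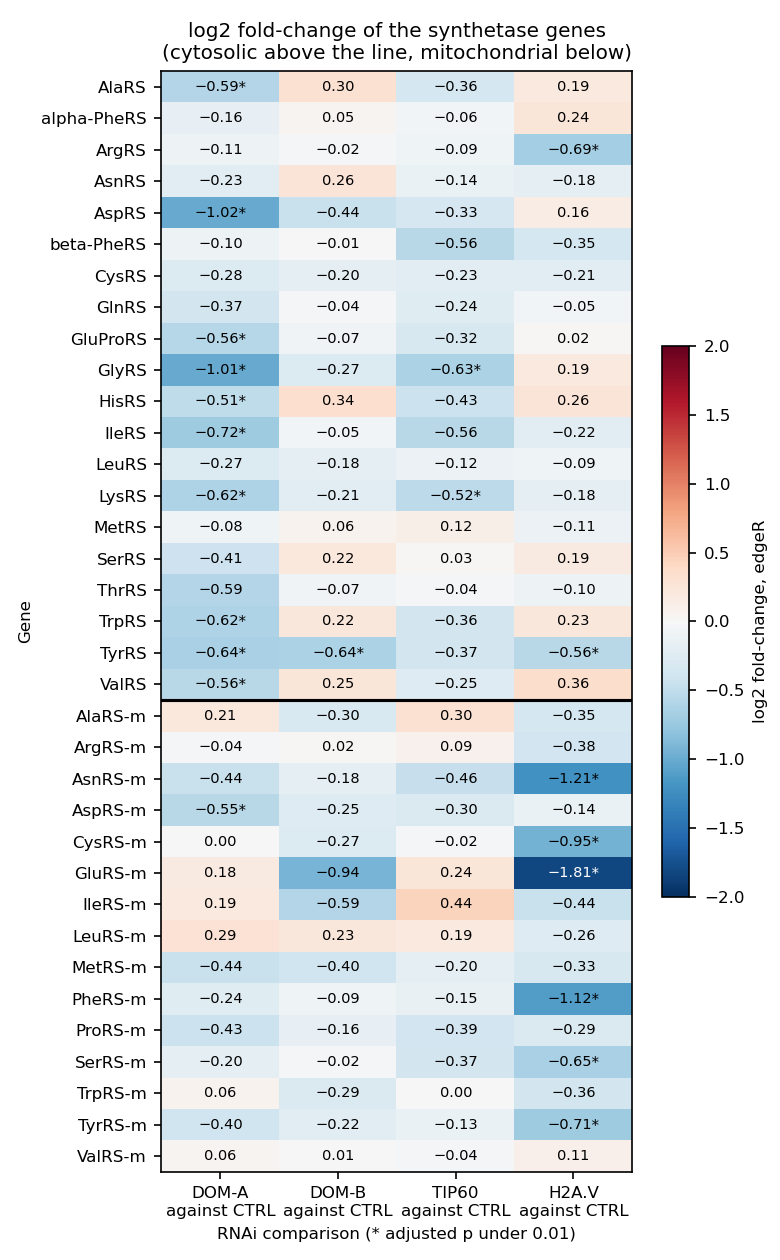
log2 fold-change against CTRL (colour and printed value, edgeR) of the 35 genes in the 4 knock-downs, with an asterisk where the adjusted p is under 0.01 and a line between cytosolic and mitochondrial genes. Calls lie in the upper block for DOM-A (10 of 11) and mainly in the lower block for H2A.V (6 of 8).

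Depletion of H2A.V was followed by lower mRNA of mitochondrial synthetases. Of the 15 mitochondrial genes, 6 were called lower, those for glutamate, asparagine, phenylalanine, cysteine, tyrosine and serine, and 0 higher, where 11.5% of all genes tested were called lower and 1.23% higher. The mitochondrial median was −0.38 and the cytosolic median −0.07, against −0.22 for all genes tested. In 10 of 15 mitochondrial and 6 of 20 cytosolic genes every H2A.V library was below every CTRL library, as in 29.4% of all genes tested. The 2 cytosolic genes called lower were ArgRS and TyrRS. Relative to the median of all genes, the mitochondrial median was −0.16 and the cytosolic median 0.15.

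GluRS-m had the largest change of all members in any comparison with CTRL. It was at 25.46, 23.33 and 25.9 in H2A.V cells, below DOM-B and all other groups, and at 28.5% of CTRL (−1.81, SE 0.24, edgeR adjusted p = 0.00019). With its mean under 100 it lies outside the rule for named genes and was chosen after its values were seen. AsnRS-m (FBgn0034177, asparagine, 2R, 17001994 to 17003599, plus strand) was at 152.1, 177.2 and 151.4 in CTRL and at 60.78, 69.26 and 76.85 in H2A.V (−1.21, SE 0.19, edgeR adjusted p = 0.000548).

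PheRS-m (FBgn0275436, phenylalanine, 2R, 13968308 to 13969902, plus strand) was at 480, 547.8 and 507.5 in CTRL and at 226.7, 207.8 and 268.5 in H2A.V (−1.12, SE 0.16, edgeR adjusted p = 0.000338). CysRS-m (FBgn0033900, cysteine, 2R, 14159096 to 14161262, minus strand) was at 295.2, 304 and 322.5 in CTRL and at 162.6, 167 and 150.2 in H2A.V (−0.95, SE 0.13, edgeR adjusted p = 0.000237). In these 4 genes every H2A.V library lay below the libraries of all other groups. TyrRS-m (−0.71) and SerRS-m (−0.65) were called with edgeR adjusted p-values of 0.00362 and 0.00772. The least affected mitochondrial genes were AspRS-m (−0.14) and ValRS-m, which was at 0.11.

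**Figure D5:**
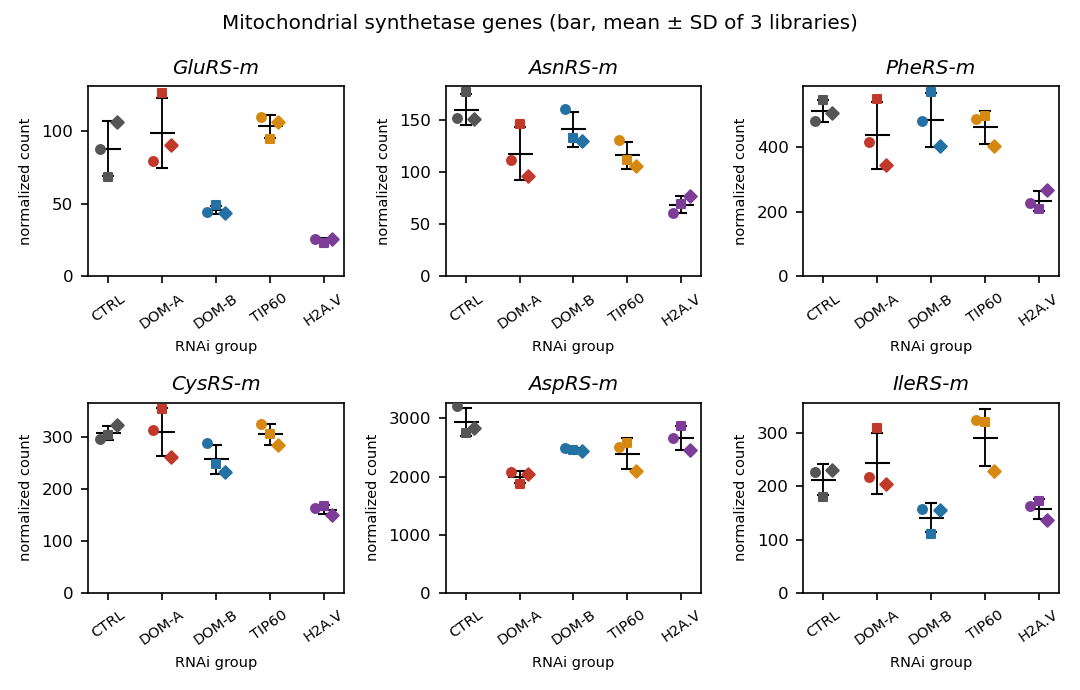
Normalized counts (y axis) of 6 mitochondrial genes by RNAi group, with replicates 1, 2 and 3 as circle, square and diamond and bars at mean ± SD of 3 libraries. GluRS-m lies at 23.33 to 25.9 in H2A.V, 43.7 to 49.19 in DOM-B and 68.75 to 106.6 in CTRL.

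ArgRS (FBgn0027093, the cytosolic arginine enzyme, X, 15841769 to 15844145, minus strand) was at 930.8, 927 and 924.4 in CTRL and at 570.9, 516.9 and 645.9 in H2A.V (−0.69, SE 0.11, edgeR adjusted p = 0.000723). Its libraries in DOM-A, DOM-B and TIP60 lay between 822.7 and 1066. TyrRS was at 1152, 1247 and 923 in H2A.V (−0.56, SE 0.10, edgeR adjusted p = 0.00171). It was the one member called lower in 3 of the 4 comparisons, which share the CTRL libraries, and at −0.37 in the fourth.

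The scale of the H2A.V comparison depended on the spike-in. TMM scaling on D. melanogaster counts moved the median of all genes from −0.22 to 0.02, that of the cytosolic genes from −0.07 to 0.19, that of the mitochondrial genes from −0.38 to −0.13, and the share of higher calls among all genes called from 9.62% to 35.8%. It gave 4 members lower and 1 higher (alpha-PheRS, 0.50, edgeR adjusted p = 0.0078) in place of 8 and 0, and total D. virilis counts gave 4 and 0 with a cytosolic median of 0.14 and a mitochondrial median of −0.18. Relative to the median of all genes, the mitochondrial median was −0.15 under both of these scalings. ArgRS, TyrRS, TyrRS-m and SerRS-m were lost under both scalings. GluRS-m, AsnRS-m, PheRS-m and CysRS-m stayed called under all 9 other settings and without any 1 of the 6 libraries. The count of 8 was 5 without H2A.V replicate 1, CTRL replicate 2 or CTRL replicate 3, and 6 without H2A.V replicate 2, the library with the most His2Av reads left.

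DOM-B and H2A.V cells were also compared. Of the 35 genes, 5 were called higher in DOM-B than in H2A.V, where 10.2% of all genes tested were, namely ArgRS, AsnRS-m, CysRS-m, LeuRS-m and PheRS-m. AsnRS-m and PheRS-m had the largest differences, both 1.03 (edgeR adjusted p = 0.0021 and 0.00117). The difference of GluRS-m was 0.88 (SE 0.24, edgeR adjusted p = 0.0185). The mitochondrial median was 0.40 and the cytosolic median 0.01, against 0.30 for all genes tested. With TMM scaling on D. melanogaster counts the median of all genes was −0.01, the share of higher calls 49.6% in place of 92.8%, and 1 member was called higher (PheRS-m) and 2 lower (alpha-PheRS and GlyRS). The count was 0 without H2A.V replicate 1, 1 without H2A.V replicate 2 or DOM-B replicate 1, and 0 in a fit of these 2 groups alone.

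Cytosolic and mitochondrial enzymes for the same amino acid were set in pairs, and differences within pairs were not tested. There are 16 such pairs when GluProRS is set beside GluRS-m and ProRS-m and each cytosolic PheRS subunit beside PheRS-m. GluProRS and PheRS-m thus each enter 2 pairs, which are not independent. After DOM-A RNAi the differences, cytosolic minus mitochondrial, ranged from −0.91 for IleRS to 0.36 for MetRS. The fold-change of the cytosolic gene was above that of its mitochondrial partner in 4 of 16 pairs after DOM-A RNAi, 5 after TIP60, 12 after DOM-B and 15 after H2A.V, as a description without a test. For isoleucine, IleRS and IleRS-m were at −0.72 and 0.19 after DOM-A RNAi and at −0.56 and 0.44 after TIP60 RNAi. For alanine, AlaRS and AlaRS-m were at −0.59 and 0.21 after DOM-A and at 0.19 and −0.35 after H2A.V. For asparagine, AsnRS and AsnRS-m were at −0.18 and −1.21 after H2A.V. ArgRS and ArgRS-m (−0.69 and −0.38) made the exception after H2A.V RNAi. After H2A.V RNAi the cytosolic PheRS subunits were at 0.24 for alpha-PheRS and −0.35 for beta-PheRS, neither of them called by edgeR.

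Some mitochondrial genes share their place with genes on the other strand. Of all reads over ArgRS-m and GluRS-m, 65.9% and 63.9% fell on the opposite strand, where mRpS9 and Serinc overlap their exons by 325 and 95 nt. The share was 23.7% for CysRS-m and at most 13.3% for any other member. The counts used here are those of the sense strand. With counts made without regard to strand, GluRS-m and CysRS-m stayed called after H2A.V RNAi, whereas SerRS-m and TyrRS-m did not.

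Genes that work with the synthetases were examined as lists. GatA and GatB encode subunits of the mitochondrial amidotransferase, which converts glutamate loaded on tRNA for glutamine by GluRS-m, and both were called lower after H2A.V RNAi (−0.56 and −0.59, edgeR adjusted p = 0.00761 and 0.00866). GatA was also called lower after DOM-A RNAi (−0.76). GatC was listed at 0 reads in all libraries. Slimp, a paralogue of SerRS-m, was called lower after DOM-A (−0.73) and H2A.V RNAi (−0.64). AIMP1 was called lower after DOM-A, TIP60 and H2A.V RNAi (−0.62, −0.49 and −0.60). AIMP2 and AIMP3 were not called in these comparisons, at −0.42 and −0.28 after TIP60 RNAi and at −0.08 and −0.10 after H2A.V RNAi. Of all genes tested, 10.4%, 8.43% and 11.5% were called lower after DOM-A, TIP60 and H2A.V RNAi.

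Of 7 cytosolic elongation factor genes, 2 were called higher after DOM-A RNAi and 0 lower, where 8.96% of all genes tested were called higher. They were eEF2, which moves the ribosome along the mRNA (0.58, edgeR adjusted p = 0.00258), and eEF1alpha2, which brings charged tRNA to it (0.77, adjusted p = 0.00685). Both were called higher after TIP60 RNAi (0.50 and 0.80), and eEF1alpha2 changed most after DOM-B RNAi, from a mean of 201 to 601 (1.57, edgeR adjusted p = 0.000268). eEF1beta was at −0.33 after DOM-A RNAi and was not called (edgeR adjusted p = 0.0462). eEF1alpha1, with a mean of 190200 in CTRL, was at 0.08 after DOM-A RNAi. Of 9 mitochondrial translation factors, 2 were called lower after DOM-A RNAi (mEFTu1, −0.84, and mEFG1, −0.55), 2 after DOM-B RNAi (mRRF2, −0.87, and mEFTu2, −0.73), 1 after TIP60 RNAi (mEFTu1, −0.67) and 1 after H2A.V RNAi (mRRF2, −0.81). The shares of all genes called lower in these comparisons were 10.4%, 2.33%, 8.43% and 11.5%, so that 1 of 9 after TIP60 or H2A.V RNAi was near the background.

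The list of the integrated stress response, through which ATF4 raises synthetase genes in mammals, held 8 regulators. In each of the 4 comparisons with CTRL, 0 of the 8 were called by edgeR. Of all genes tested, 19.4%, 5.07%, 13.3% and 12.7% were called after DOM-A, DOM-B, TIP60 and H2A.V RNAi. At an unadjusted p under 0.05 in edgeR were 5, 3, 2 and 5 regulators, beside 4851, 3202, 4164 and 4230 of 11424 genes. Whether this response took part was not tested. The median of the 8 regulators was −0.05 after DOM-A RNAi, and 4 were at an adjusted p between 0.01 and 0.05 in edgeR. Thor (−1.18) and PPP1R15 (−0.35) were lower, and trbl (0.57) and Atf3 (0.75) were higher. The ATF4 homologue crc had means of 4636 in CTRL and 3758 in DOM-A (−0.30, SE 0.13, edgeR adjusted p = 0.103). Of 13 genes of amino acid synthesis and one-carbon metabolism, 4 were called lower and 1 higher after DOM-A RNAi, 1 lower after DOM-B, 2 lower after TIP60 and 4 lower after H2A.V RNAi (CG11899, Gdh, P5cr and Got2), beside the same shares of all genes. After DOM-A RNAi, AsnS, which makes asparagine, was at −0.71 (edgeR adjusted p = 0.0022) and Shmt, which interconverts serine and glycine, at −0.63. CG11899, listed as the phosphoserine aminotransferase of serine synthesis, was called lower in all 4 comparisons (−2.84 DOM-A, −1.39 DOM-B, −3.44 TIP60 and −1.07 H2A.V). Of 8 amino acid transporter genes tested, 3 were called after DOM-A RNAi and 2 after TIP60 RNAi, beside 19.4% and 13.3% of all genes. JhI-21 was called lower after DOM-A (−1.07) and TIP60 RNAi (−0.85), and path was called higher after both (0.92 and 1.19). The gene sbm was called higher after DOM-A RNAi (2.54). Its mean was 10.8 in CTRL and 67.4 in DOM-A, where the libraries varied widely (SD 54.3).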

How the data were processed

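The authors mapped 50 nt single reads with STAR 2.5.3a to the D. melanogaster (dm6) and D. virilis genomes and kept those with 1 position. The deposited values are raw read counts per gene, without regard to strand and for each strand. Counts of the strand that most reads fell on were used. Members and lists were chosen with earlier results of these data known. Genes with at least 1 read in 6 libraries were kept (11424, and 8941 for D. virilis), and library sizes were set from D. virilis counts by the median-of-ratios method. edgeR 4.0.16 (R 4.3.3, quasi-likelihood test) was fitted to all 15 libraries with the replicate number as a block, and p-values were adjusted by Benjamini-Hochberg over the 11424 genes in each of 7 comparisons. The study's own test was DESeq2, used here as version 1.42.0 as an alternative.

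The study's methods treat the replicate as a batch. Deviations from group means correlated by 0.356 on average for 30 pairs of libraries with the same number (27 above 0.1, lowest 0.0304). For 60 other pairs the mean was −0.176 (10 above 0.1, highest 0.324). Deviations from a mean of 3 libraries sum to 0, which makes the second mean negative when the first is positive, so it is no separate evidence. Within groups, libraries varied beyond sampling noise (chi-square per degree of freedom 19.9 to 106 over genes with at least 20 reads). Whether they came from separate cultures is not stated beyond being biological replicates, so p-values measure the spread between these libraries.

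Full values were given by rule for, in each comparison with CTRL, up to 3 called members with the largest change in each direction, provided that the mean was 100 normalized counts or more and that all 3 replicates moved one way, together with the members of highest and lowest level. Further members given by library were chosen after their values were seen. Symbols and positions came from a BDGP6 annotation, release 115, newer than that of the authors, and 17343 of 17481 identifiers matched. arcus, one of the transporters listed, was not matched, and promoter and protein sequences were not used here. The scripts were tested on simulated data with known changes. Other scalings, strand, filter, threshold, tool, block, samples in the fit and each library left out were tried as alternatives.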

Additional observations from a re-analysis of the deposited data

How the results depend on the processing

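The numbers of members called, 11 (DOM-A), 1 (DOM-B), 2 (TIP60) and 8 (H2A.V) against CTRL, 10 (DOM-A against DOM-B), 0 (DOM-A against TIP60) and 5 (DOM-B against H2A.V), varied as follows. With 1 library left out they ranged from 4 to 11, 0 to 1, 0 to 1, 5 to 8, 5 to 10, 0 to 0 and 0 to 7 in that order. Without the replicate block the counts were 5 for DOM-A, 0 for DOM-B, 1 for TIP60, 5 for H2A.V, 6 for DOM-A against DOM-B and 4 for DOM-B against H2A.V. TMM scaling on D. melanogaster counts gave 10 for DOM-A, 2 for DOM-B, 0 for TIP60 and 5 for H2A.V. It gave 6 for DOM-A against DOM-B and 3 for DOM-B against H2A.V. Total D. virilis counts gave 13 for DOM-A, 0 for DOM-B, 9 for TIP60 and 4 for H2A.V. They gave 15 for DOM-A against DOM-B and 3 for DOM-B against H2A.V. DESeq2 gave 13 for DOM-A, 2 for DOM-B, 6 for TIP60 and 8 for H2A.V. It gave 14 for DOM-A against DOM-B and 9 for DOM-B against H2A.V. Fits of only the groups compared gave 11 for DOM-A, 4 for DOM-B, 3 for TIP60 and 8 for H2A.V. They gave 7 for DOM-A against DOM-B and 0 for DOM-B against H2A.V. A threshold of 0.05 gave 13 for DOM-A, 2 for DOM-B, 7 for TIP60 and 8 for H2A.V. It gave 17 for DOM-A against DOM-B and 11 for DOM-B against H2A.V. TMM on D. virilis counts, counts without regard to strand and no filter gave 11 to 12 for DOM-A and 1 for DOM-B. They gave 2 for TIP60, 6 to 8 for H2A.V, 9 to 11 for DOM-A against DOM-B and 4 to 5 for DOM-B against H2A.V. DOM-A against TIP60 gave 0 under every setting run, while DESeq2 called 58 genes of all genes in place of 2. Of 555 values of called members under these alternatives, 416 kept the call and 139 lost it, 83 of them with a library left out. Direction turned in 0 of the 555. The 416 include the values at the threshold of 0.05, which come from the main fit and could not lose a call or turn. The cause of the losses was not tested. Depth limits GluRS-m most, at 30 reads in its lowest library.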
